A study of Mus musculus with 8 samples.

Results

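The genes described here are 45 mouse genes of the interferon response and of antigen presentation, taken from a fixed list of names and followed on single arrays of cultured fat cells. Of the 45 genes, 41 had at least 1 probe set (a group of short oligonucleotides on the array that reads 1 transcript) annotated to them alone, with 70 probe sets among them, and 40 entered the tests, out of 9294 genes tested in all. Mx2, an antiviral GTPase, was measured at intensities between 4.5 and 49.4 and fell among the 25% of genes with the lowest mean, which were not tested. Isg15 and Psme2 shared their probe sets with other genes, and Xaf1 and Ifi44 are not listed in the annotation used, so these 4 genes were not analysed here.

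The cells were adipocytes differentiated in culture from the stromal-vascular (SV) cells of inguinal white fat, a fat depot under the skin, of male C57BL/6J mice. They expressed an shRNA named sh-PRDM16, directed at a co-regulator of brown fat genes, or the control shRNA sh-scr, and each was kept with 1 µM rosiglitazone, a drug that activates the nuclear receptor PPARγ, or without it. The 4 groups were treated sh-PRDM16, untreated sh-PRDM16, treated sh-scr and untreated sh-scr, with 2 Affymetrix mouse arrays each. The arrays of a group are biological replicates per the labels, which name no separate cultures or animals, so a p-value measures only the spread between these arrays. Prdm16 itself was not analysed here, and the knockdown is known from the labels alone.

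Interferons are secreted proteins that bind receptors on the cell surface and activate JAK kinases and STAT transcription factors. Type I interferons act on target genes that carry the interferon-stimulated response element (ISRE), and interferon gamma on genes that carry the gamma-activated sequence (GAS). Among the targets are antiviral effectors, and also the machinery that cuts proteins into peptides and presents them on class I molecules, in which the immunoproteasome replaces the catalytic subunits of the ordinary proteasome.

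The sequences upstream of 5 genes described below are printed, and whether their motifs bear on the array values was not tested. Ifit1, Ifit3 and Rsad2 differed most between the 2 untreated sh-PRDM16 arrays among the genes that have a promoter sequence, and Psmb8 and Psmb9 were lower in both sh-PRDM16 groups. Each run is the 250 bases before the gene's start in RefSeq, build GRCm38.p6, written 5′ to 3′ on the gene's strand, with capitals on matches to the ISRE core (GAAA, any 2 bases, GAAA) or to the GAS motif (TTCNNNGAA) on either strand.
Ifit1, chr19:34640639-34640888, plus strand: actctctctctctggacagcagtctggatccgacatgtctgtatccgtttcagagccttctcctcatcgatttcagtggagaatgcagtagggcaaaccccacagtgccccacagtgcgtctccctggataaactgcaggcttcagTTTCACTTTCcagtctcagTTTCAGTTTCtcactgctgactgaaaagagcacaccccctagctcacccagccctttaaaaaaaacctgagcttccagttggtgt
Ifit3, chr19:34583279-34583528, plus strand: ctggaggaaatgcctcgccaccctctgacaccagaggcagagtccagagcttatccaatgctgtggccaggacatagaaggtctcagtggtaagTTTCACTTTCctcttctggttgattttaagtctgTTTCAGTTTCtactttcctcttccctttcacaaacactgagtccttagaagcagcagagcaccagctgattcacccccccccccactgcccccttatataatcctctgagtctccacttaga
Rsad2, chr12:26456453-26456702, minus strand: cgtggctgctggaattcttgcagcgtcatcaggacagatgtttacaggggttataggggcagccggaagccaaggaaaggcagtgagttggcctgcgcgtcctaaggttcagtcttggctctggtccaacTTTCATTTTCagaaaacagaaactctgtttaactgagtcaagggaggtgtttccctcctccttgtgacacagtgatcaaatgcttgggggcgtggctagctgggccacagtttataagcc
Psmb8, chr17:34197945-34198194, plus strand: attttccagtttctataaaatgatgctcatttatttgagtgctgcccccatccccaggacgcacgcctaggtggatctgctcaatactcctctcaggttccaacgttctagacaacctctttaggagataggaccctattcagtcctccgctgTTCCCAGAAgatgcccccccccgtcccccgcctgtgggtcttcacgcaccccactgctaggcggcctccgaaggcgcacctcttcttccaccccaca
Psmb9, chr17:34187331-34187580, minus strand: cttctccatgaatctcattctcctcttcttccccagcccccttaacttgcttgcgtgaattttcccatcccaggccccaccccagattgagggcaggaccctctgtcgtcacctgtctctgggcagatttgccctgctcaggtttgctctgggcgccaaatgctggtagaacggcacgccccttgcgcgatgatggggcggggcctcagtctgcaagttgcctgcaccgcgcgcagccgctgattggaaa
The Ifit1 run holds 2 matches to the ISRE core and the Ifit3 run 2, while Rsad2 has 1. Psmb8 holds 1 match to the GAS motif, which begins 97 bases before the start, and Psmb9 has no match to either motif. Psmb9, Tap1, Psmb8 and Tap2 are neighbours in this order on chromosome 17, and the promoter windows of Psmb9 and Tap1, which face opposite ways, share 275 bases.

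A window from 250 bases before to 50 bases after the start was found for 32 of the 41 measured genes. Of these, 14 held the ISRE core, or 43.8%, against 3.99% of 27025 genes with a window. The GTPases had it in 4 of 4, the effectors in 6 of 13, and the immunoproteasome and class I genes in 1 of 4 and 1 of 5, these being Psme1 and B2m. The GAS motif was in 9 of the 32 genes, or 28.1%, against 9.55% of all genes with a window. Overlapping matches were both counted, as in Bst2, where a GAS match shares bases with an ISRE match. No window was used for Oas2, Usp18, Dhx58, Iigp1, Mx2, Ifi27l2a, Parp14, Mx1 and Tap2.

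Array medians ran from 101 to 136, and the median change over all 9294 genes, on the scale log2(intensity + 16), was -0.31 for rosiglitazone in sh-scr cells, 0.00 for rosiglitazone in sh-PRDM16 cells, -0.16 for sh-PRDM16 over sh-scr without the drug and 0.15 with it. Every change below was therefore also computed on median-centred and on quantile-normalized arrays, together called the other scales. The adipocyte gene Adipoq, for the hormone adiponectin, had intensities from 9965 to 15191 over the 8 arrays, and the dimmest of 7 measured adipocyte markers, the glucose transporter gene Slc2a4, had 129.7 to 378. The 2 untreated sh-PRDM16 arrays stood apart from each other in interferon-stimulated genes. For some genes, values that rest on these arrays are therefore also given with either array left out. The values of other genes come from the fit of all arrays, and some of their calls were lost when an array was left out.

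**Figure D1:**
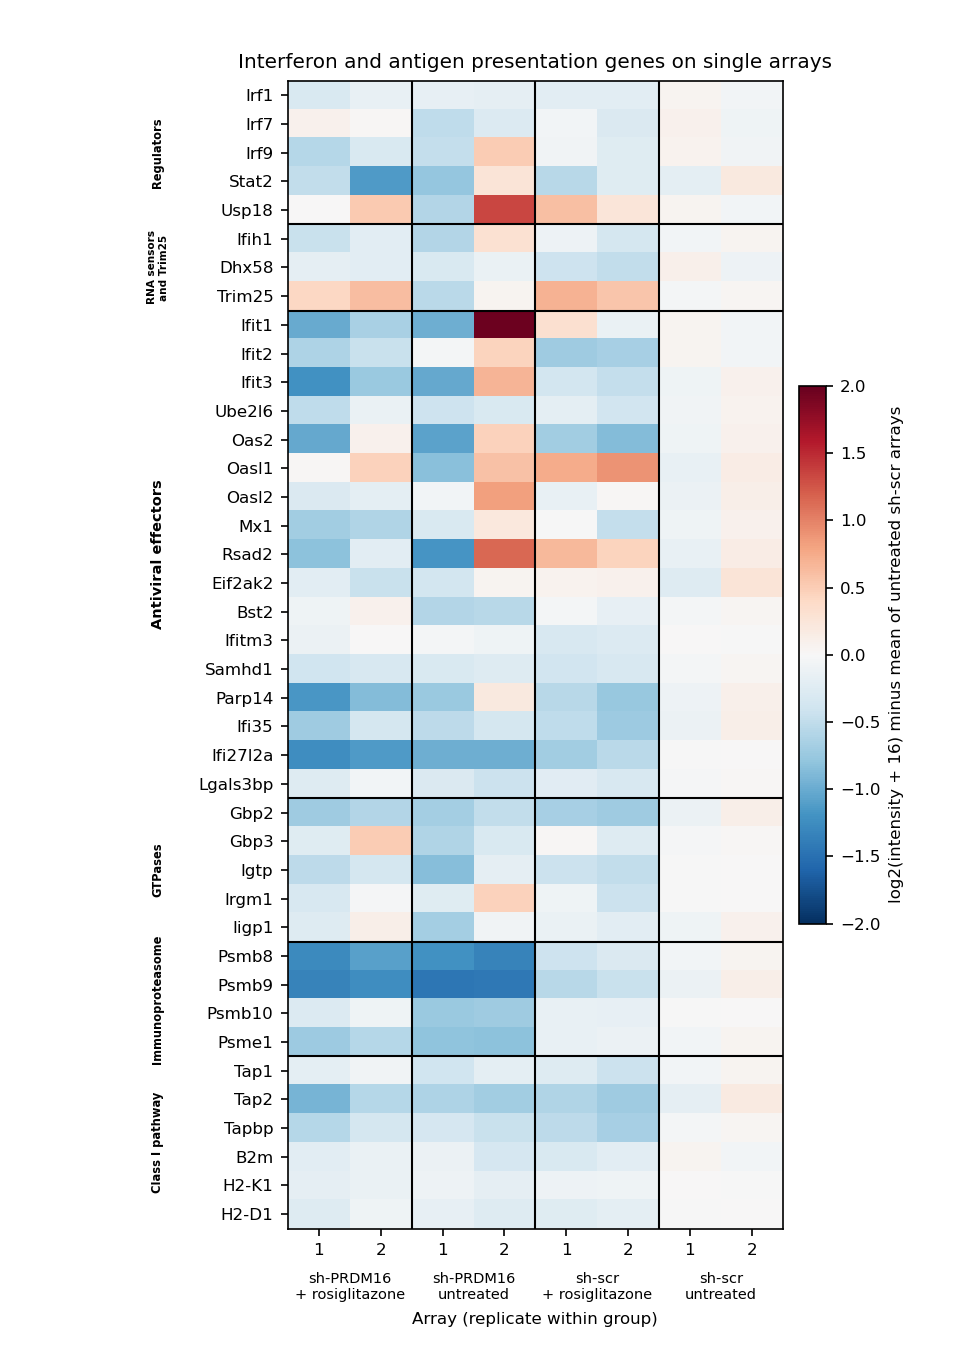
The 40 tested genes (down the page, by role) on the 8 arrays (across, 2 per group), coloured by log2(intensity + 16) minus the mean of the 2 untreated sh-scr arrays, red for higher and blue for lower. Psmb8 and Psmb9 are blue on all 4 sh-PRDM16 arrays, and Ifit1, Rsad2, Usp18 and Ifit3 are red on array 2 and blue on array 1 of untreated sh-PRDM16.

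The comparison of sh-PRDM16 with sh-scr cells asks what the PRDM16 shRNA changed within each drug condition. Without rosiglitazone, 8 of the 40 genes were lower in sh-PRDM16 cells (20%, against 15.5% of all genes) and 0 were higher (1.99% of all genes) at an adjusted p under 0.05. With rosiglitazone, 4 of the 40 were lower (10%, against 4.62% of all genes) and 0 were higher (10.6% of all genes). At an unadjusted p under 0.05, 15 of the 40 passed without the drug (31.3% of all genes) and 4 of the 40 with it (33.8% of all genes). The arrays of the 2 lines did not overlap for 23 lower and 0 higher genes without the drug (47.0% and 10.8% of all genes) and for 14 lower and 6 higher genes with it (18.2% and 46.5% of all genes). The median change of the 40 genes was -0.27 without and -0.03 with the drug, against -0.16 and 0.15 over all genes. On median-centred arrays 7 were lower (12.2% of all genes) and 0 higher (9.31% of all genes) without the drug, and 4 were lower (13.5% of all genes) with it. On quantile-normalized arrays 7 (12.6% of all genes) and 4 (12.5% of all genes) were lower. Without the drug the share that was lower is near that of all genes on the deposited scale. The calls were uneven over the roles, with 4 of the 8 and 3 of the 4 in the immunoproteasome.

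Psmb9, a catalytic subunit of the immunoproteasome that takes the place of Psmb6, had intensities of 562 and 569 in untreated sh-PRDM16 cells, against 1437 and 1690.1 in untreated sh-scr cells. With rosiglitazone it had 607 and 648 in sh-PRDM16 cells, against 1059 and 1141 in sh-scr cells. All 4 sh-PRDM16 arrays lay below all 4 sh-scr arrays, and the 2 untreated sh-PRDM16 arrays were nearly equal. Psmb9 fell by 1.44 without the drug (SE 0.13, adjusted p = 0.000221) and by 0.79 with it (SE 0.13, adjusted p = 0.00601) on the log2 scale.

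Psmb8, the catalytic subunit that takes the place of Psmb5, had 712 and 650.2 in untreated sh-PRDM16 cells, against 1602 and 1728 in untreated sh-scr cells. With rosiglitazone it had 677 and 776 in sh-PRDM16 cells, against 1251 and 1359.9 in sh-scr cells. The sh-PRDM16 arrays again lay below every sh-scr array. The change was -1.27 without the drug (SE 0.13, adjusted p = 0.000424) and -0.83 with it (SE 0.13, adjusted p = 0.00491).

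Psme1 encodes the alpha subunit of the PA28 cap, which binds the ends of the proteasome core and is induced by interferon gamma. It had 1174 and 1159 in untreated sh-PRDM16 cells, against 1975 and 2150.1 in untreated sh-scr cells. With rosiglitazone it had 1233 and 1386 in sh-PRDM16 cells, against 1861 and 1896 in sh-scr cells. The arrays of the 2 lines did not overlap in either condition, and Psme1 fell by 0.81 without the drug (adjusted p = 0.00303) and by 0.52 with it (adjusted p = 0.028).

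Psmb10, the subunit that takes the place of Psmb7, had 522 and 533 in untreated sh-PRDM16 cells, against 876 and 892 in untreated sh-scr cells. With rosiglitazone it had 730.2 and 831 in sh-PRDM16 cells, against 799 and 787 in sh-scr cells. The groups were separate without the drug and overlapped with it. Psmb10 fell by 0.73 without the drug (SE 0.13, adjusted p = 0.00487), and its change with the drug was -0.03 (adjusted p = 0.904). The difference between the 2 drug conditions, tested as an interaction, was 0.70 and did not pass (adjusted p = 0.102).

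The 4 calls without the drug and the 3 with it held on both other scales. Psmb8 and Psmb9 in both conditions, and Psmb10 and Psme1 without the drug, also passed under all 17 alternative settings, among them those that leave out either untreated sh-PRDM16 array. Psme1 with the drug passed under 12 of the 17.

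Among the ordinary counterparts, Psmb5, Psmb6, Psmb7 and the nuclear cap subunit Psme3, 1 of 4 was lower without the drug (15.5% of all genes) and 0 of 4 with it (4.62% of all genes). All 4 had both untreated sh-PRDM16 arrays below both untreated sh-scr arrays. The gene that passed was Psmb5, which had 3009 and 2676 in untreated sh-PRDM16 cells, against 3984 and 4082 in untreated sh-scr cells (log2 change -0.50, adjusted p = 0.0248). Psmb6, Psmb7 and Psme3 had changes of -0.37 (adjusted p = 0.0696), -0.36 (adjusted p = 0.0906) and -0.18 (adjusted p = 0.401).

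**Figure D2:**
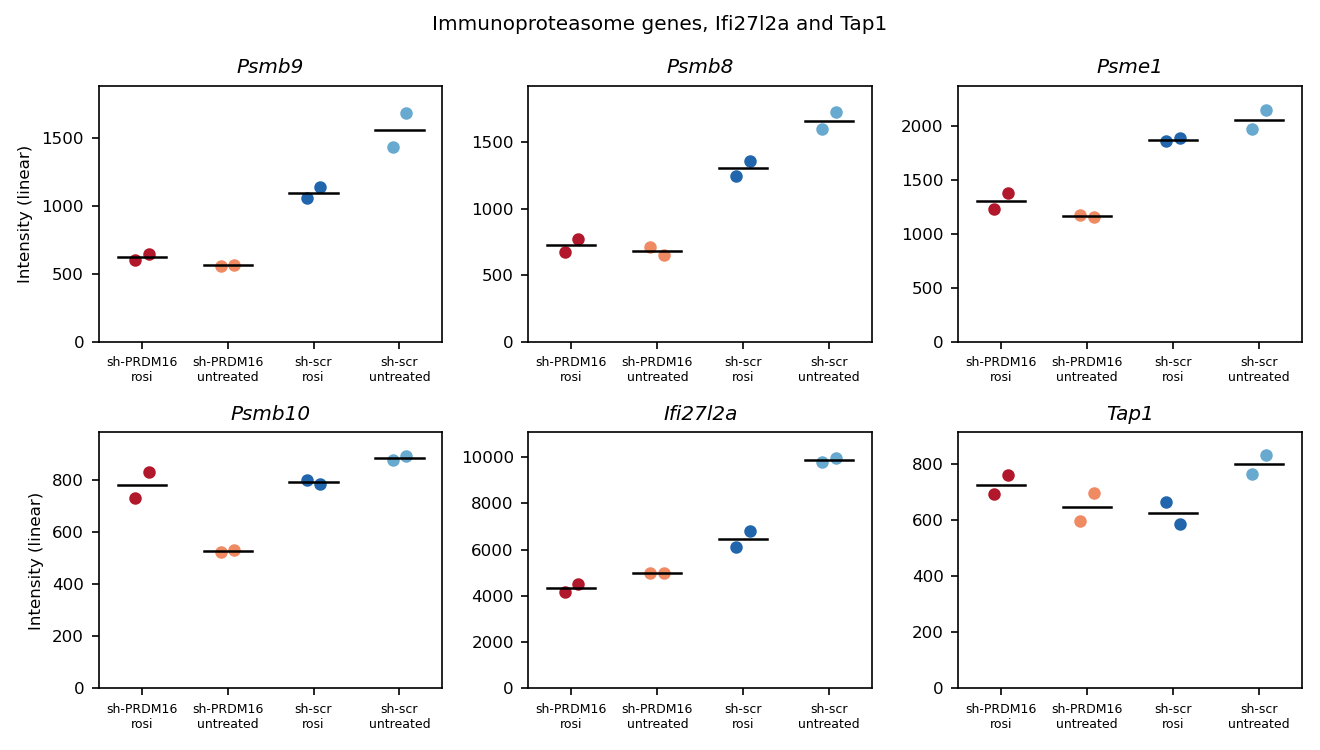
Linear array intensity (vertical axis, from 0) of the 4 immunoproteasome genes, Ifi27l2a and Tap1 in the 4 groups, with 1 point per array and a bar at the mean of 2 arrays. Psmb9, Psmb8 and Psme1 lie lower on all sh-PRDM16 arrays than on any sh-scr array, while Psmb10 does so only without rosiglitazone and Tap1 is between 586 and 832 throughout.

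White blood cell markers were lower in the same groups. Of 14 such markers measured, 11 were tested. Of these, 9 were lower in untreated (15.5% of all genes) and 10 in treated sh-PRDM16 cells (4.62% of all genes). Both counts were the same on the other scales (12.2% to 13.5% of all genes). Their median change was -2.48 without and -2.23 with rosiglitazone. Lyz2, a lysozyme of macrophages and neutrophils, had 234 and 236 in untreated sh-PRDM16 cells, against 3148 and 3308 in untreated sh-scr cells.

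The summed intensity of the 14 markers was 911 to 931 in treated sh-PRDM16, 1141 to 1187 in untreated sh-PRDM16, 3716 to 3749 in treated sh-scr and 5733 to 6294 in untreated sh-scr cells. The largest part of the sum was Csf1r on the sh-PRDM16 arrays and Lyz2 on the sh-scr arrays. With rosiglitazone Csf1r overlapped between the lines, with 557 and 541 in sh-PRDM16 cells, against 600 and 460 in sh-scr cells. No marker was listed at 0, but the complement gene C1qc was between 0.9 and 4.8 on the sh-PRDM16 arrays, against 96.5 to 192 on the sh-scr arrays. Immunoproteasome genes are expressed at high levels in white blood cells, and the part of those cells in the lower values was not tested. In cultures measured in bulk, fewer cells of a type and less RNA per cell cannot be told apart. Adipocyte markers were lower as well, 5 of 7 without the drug (15.5% of all genes) and 3 of 7 with it (4.62% of all genes). The second count was 5 on median-centred (13.5% of all genes) and on quantile-normalized arrays (12.5% of all genes).

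The class I pathway showed smaller differences between the lines. Tap2, which forms the peptide transporter of the endoplasmic reticulum with Tap1, had 298 and 282 in untreated sh-PRDM16 cells, against 411 and 533 in untreated sh-scr cells. The groups did not overlap, and Tap2 fell by 0.66 (SE 0.17, adjusted p = 0.0276), a call that held on both other scales and under 10 of 17 alternatives. Tap1 had 598 and 697 in untreated sh-PRDM16 cells, against 764 and 832 in untreated sh-scr cells, and its change of -0.30 did not pass (adjusted p = 0.185). With rosiglitazone its change was 0.21 (adjusted p = 0.311), so that Tap1 passed in neither condition although it lies between Psmb9 and Psmb8.

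B2m, the shared light chain of class I molecules, and the heavy chains H2-K1 and H2-D1 were among the brightest of these genes, at 11139 to 18879.9 over the 8 arrays. Their changes in untreated sh-PRDM16 cells were -0.23, -0.15 and -0.21, with none passing. Tapbp, the chaperone tapasin that links the transporter to class I molecules, had a change of -0.39 that did not pass (adjusted p = 0.0818). H2-K1 and H2-D1 have 4 and 9 probe sets, most of them of a kind that can hybridize with related class I genes, so reads of single class I genes are uncertain. The dimmest H2-K1 probe set, at a mean intensity of 506, was lower in untreated sh-PRDM16 cells on its own (-0.77, adjusted p = 0.018), unlike the other 3, which had -0.15 to -0.37. The tested probe sets of H2-D1 ran from -0.66 to 0.92, both ends at mean intensities under 40, and none passed. Of these, 1 with a mean of 6040 had -0.48 (adjusted p = 0.0762).

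Among the antiviral effectors, 2 of 17 were lower without rosiglitazone (15.5% of all genes) and 1 of 17 with it (4.62% of all genes). Ifi27l2a, a small interferon-induced membrane protein, had 5007 and 5004 in untreated sh-PRDM16 cells, against 9785 and 9957 in untreated sh-scr cells. With rosiglitazone it had 4147 and 4500.2 in sh-PRDM16 cells, against 6092 and 6808 in sh-scr cells. The 4 sh-PRDM16 arrays lay below the 4 sh-scr arrays, and Ifi27l2a fell by 0.98 without the drug (SE 0.13, adjusted p = 0.00108) and by 0.57 with it (adjusted p = 0.0191). Both calls held on the other scales, the call without the drug under all 17 alternatives and the call with it under 14.

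Bst2, or tetherin, which holds budding virus at the cell surface, had 2103 and 2163 in untreated sh-PRDM16 cells, against 3106 and 3255 in untreated sh-scr cells. With rosiglitazone it had 2982 and 3364 in sh-PRDM16 cells, against 3102 and 2845 in sh-scr cells. The groups were separate only without the drug, where Bst2 fell by 0.57 (SE 0.13, adjusted p = 0.016) on all 3 scales. Its change with the drug was 0.09 (adjusted p = 0.643).

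The other 15 effectors without the drug had changes from -0.44 (Ifi35) to 0.49 (Ifit1), and none passed. The effector Ifitm3, which blocks the fusion of virus with the cell, was the brightest, at 10900.2 to 13709.6, with changes of -0.06 without and 0.24 with the drug. Samhd1, which breaks down nucleotides, and Eif2ak2, the kinase PKR that halts translation, had changes of -0.28 and -0.15 without the drug. Ube2l6, the conjugating enzyme of Isg15, and the galectin ligand Lgals3bp had -0.36 each.

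The guanylate-binding and immunity-related GTPases, which attack the membranes around parasites, counted 1 lower of 5 without rosiglitazone (15.5% of all genes) and 0 with it (4.62% of all genes). Gbp2 had 778 and 889.9 in untreated sh-PRDM16 cells, against 1156 and 1375 in untreated sh-scr cells. The groups did not overlap and Gbp2 fell by 0.59 (adjusted p = 0.0208), but not on median-centred (adjusted p = 0.0805) or quantile-normalized arrays (adjusted p = 0.0983). Its dimmer probe set had -0.43 and did not pass on its own (adjusted p = 0.0867). Gbp3, Igtp and Iigp1 had -0.46, -0.51 and -0.37 and Irgm1 had 0.11, none of which passed.

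None of the 5 regulators and 3 genes of RNA sensing passed in either condition. Irf7, the factor that amplifies type I interferon production, had 429 and 506 in untreated sh-PRDM16 cells, against 657 and 578 in untreated sh-scr cells (change -0.39, adjusted p = 0.0994). Irf1 had -0.18, Irf9 0.01, Stat2 -0.26 and Usp18, which removes Isg15 and blocks the type I receptor, 0.37. The sensors Ifih1 and Dhx58 and the ubiquitin ligase Trim25 had -0.15, -0.22 and -0.25.

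**Figure D3:**
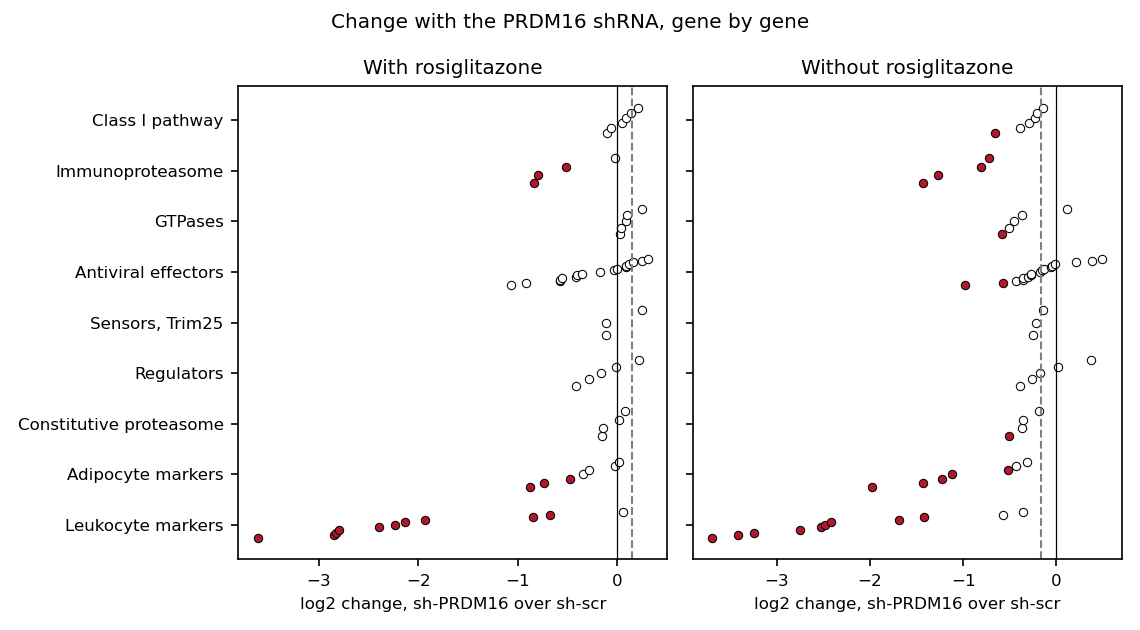
Log2 change of sh-PRDM16 over sh-scr (horizontal axis) with rosiglitazone (left panel) and without it (right panel), with 1 point per tested gene, rows by role and by comparison list, and filled points at an adjusted p under 0.05. The dashed line is the median of all genes, and the immunoproteasome lies left of it, with most but not all white blood cell markers farther left.

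The 2 untreated sh-PRDM16 arrays differed in the interferon-stimulated genes. On log2(intensity + 16), 7 of the 40 genes were more than 1 higher on array 2 than on array 1, or 17.5%, against 47 of all 9294 genes, or 0.506%. The array as a whole ran the other way, with a median difference of -0.20 over all genes and 0.22 over the 40. In treated sh-PRDM16, treated sh-scr and untreated sh-scr cells, 1, 0 and 0 of the 40 genes were that much higher on array 2 (0.732%, 0.269% and 0.721% of all genes). With 1 array on each side these are descriptions with no test.

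Ifit1, which binds viral RNA that lacks a host cap, had 190.1 on array 1 and 1550.3 on array 2 of untreated sh-PRDM16, and 404 and 372 on the untreated sh-scr arrays. The difference of 2.93 was the largest of all 9294 genes. The 2 sh-PRDM16 arrays thus lay below and above both sh-scr arrays.

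Rsad2, or viperin, an enzyme that makes a chain-ending nucleotide, had 181 and 976 on the same arrays, against 388 and 479.5 in untreated sh-scr cells. Its difference of 2.33 ranked 2 of all genes, and its 3 probe sets are all annotated to it alone. Usp18 had 226 and 903, against 364 and 334 in untreated sh-scr cells, a difference of 1.92 that ranked 4. In each of them the sh-scr arrays lay between the 2 sh-PRDM16 arrays.

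Ifit3, which stabilizes Ifit1 in human cells, had 319 and 1074, against 630.2 and 706 in untreated sh-scr cells, a difference of 1.70. Oas2, which makes the second messenger of RNase L, differed by 1.54, its relative Oasl1 by 1.42 and the transcription factor Stat2 by 1.02. Oas2 was also the gene that differed in treated sh-PRDM16 cells, by 1.11, with 35.1 and 94.4. Below the limit of 1 came Irf9 at 0.98, Parp14 at 0.94, Ifih1 at 0.89 and Oasl2 at 0.87.

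The immunoproteasome genes differed less between the same arrays, by -0.13 to 0.03, and the class I genes by -0.22 to 0.22. The 5 GTPases were 0.19 to 0.70 higher on array 2 and the 3 genes of RNA sensing 0.17 to 0.89 higher. Of 27 interferon-stimulated genes from a separate list, 6 differed by more than 1, led by the chemokine Cxcl10 at 2.07, which ranked 3 of all genes, then Rtp4 at 1.49 and Cmpk2 at 1.40. Irgm2, Trim30a and Slfn2 differed by 1.14, 1.06 and 1.01.

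The interferon genes themselves were dim, with Ifnb1 at 10.1 and 11.2 and Ifng at 1.4 and 0.5 on the 2 arrays, below the array medians. Among white blood cell markers 1 of 11, the complement gene C1qa, differed by more than 1, with 4.1 and 26. Whether a difference in the cultures or in the handling of the RNA underlies the split was not tested.

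**Figure D4:**
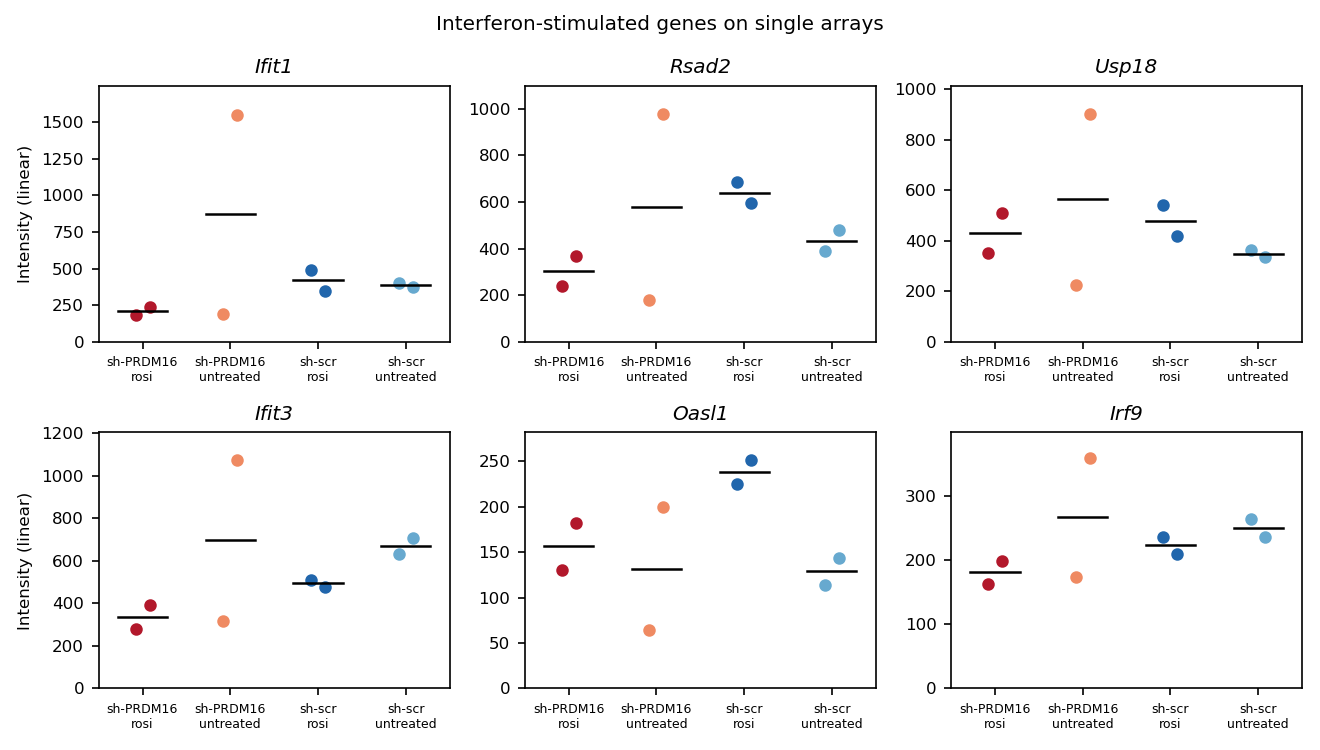
Linear array intensity (vertical axis, from 0) of 6 interferon-stimulated genes in the 4 groups, with 1 point per array and a bar at the mean of 2 arrays. In untreated sh-PRDM16 cells the 2 points of Ifit1 are 190.1 and 1550.3 and those of Rsad2 181 and 976, and the bar lies near neither.

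Leaving out either array changed which genes passed. In these fits the lone array is assumed to vary like the other groups. For Ifit1 and Rsad2 this does not hold, since they differed by 2.93 and 2.33 between the 2 arrays. In treated sh-PRDM16, treated sh-scr and untreated sh-scr cells Ifit1 differed by 0.36, -0.46 and -0.12, and Rsad2 by 0.60, -0.20 and 0.30. The adjusted p-values of such genes are therefore too small here. Without array 1, Ifit1 (1.96, adjusted p = 0.00511), Oasl2 (0.82), Rsad2 (1.15) and Usp18 (1.33) were higher in untreated sh-PRDM16 than in sh-scr cells, 4 genes against 0.925% of all genes, and 6 were lower (17.9% of all genes). Without array 2, 0 were higher (1.48% of all genes) and 9 were lower (6.74% of all genes), now with Ifit3 (-1.03), Rsad2 (-1.18) and Igtp (-0.84). Rsad2 therefore changed in opposite directions with the 2 arrays, and Ifit1 had -0.97 without array 2. All 4 immunoproteasome genes and Ifi27l2a were lower with either array left out, Psmb9 by 1.43 without array 1 and by 1.44 without array 2.

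With rosiglitazone, Ifit1 and Rsad2 lay lower in sh-PRDM16 than in sh-scr cells. Ifit1 had 185 and 241 in treated sh-PRDM16 cells, against 489 and 350.5 in treated sh-scr cells, and Rsad2 had 238 and 369, against 684 and 596. The groups did not overlap for either gene, whereas those of Usp18, Igtp and Oas2 did. The changes of -0.92 (adjusted p = 0.382) and -1.07 (adjusted p = 0.221) did not pass in the fit of all arrays, which includes the spread of the untreated sh-PRDM16 arrays. With array 1 or array 2 of that group left out they passed (Ifit1 adjusted p = 0.0238, Rsad2 adjusted p = 0.0226), and the genes lower in treated sh-PRDM16 cells were then 6 of 40 (5.44% of all genes).

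The comparison of cells with and without rosiglitazone asks what the PPARγ agonist changed in each line. In sh-scr cells 1 of the 40 genes was higher (2.5%, against 5.20% of all genes) and 9 were lower (22.5%, against 32.2% of all genes). The median change of the 40 genes was -0.26, beside -0.31 over all genes, so the lower calls went with a shift of the whole table. Without untreated sh-scr array 2, 0 of the 40 were lower (9.58% of all genes), and without treated sh-scr array 2, 1 was lower (8.76% of all genes). The higher count was 0 without any 1 of the 4 sh-scr arrays (2.73% to 3.52% of all genes). On median-centred arrays 1 gene was higher (14.9% of all genes) and 1 lower (10.7% of all genes). In sh-PRDM16 cells 3 of 40 were higher (7.5%, against 10.1% of all genes) and 1 was lower (2.5%, against 3.31% of all genes). On median-centred arrays these counts were 2 higher (13.6% of all genes) and 1 lower (11.2% of all genes). The groups did not overlap for 4 higher and 29 lower genes in sh-scr cells (12.4% and 64.7% of all genes) and for 8 higher and 6 lower genes in sh-PRDM16 cells (27.0% and 23.6% of all genes). The called shares did not exceed those of all genes in either line on the deposited scale.

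The response in sh-PRDM16 cells depended on the untreated arrays. Without array 1 of untreated sh-PRDM16, 9 of the 40 genes were lower with the drug (1.37% of all genes) and 0 higher (10.4% of all genes), with Ifit1 at -2.78, Ifit3 at -1.65 and Rsad2 at -1.67. Without array 2, 0 were lower (2.84% of all genes) and 2 were higher (5.75% of all genes), Oasl1 at 1.09 and Trim25 at 1.06.

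Trim25, a ubiquitin ligase of the RIG-I pathway that also acts as a ligase for Isg15, was the member higher in both lines. It had 1936 and 1760.5 in treated sh-scr cells, against 1167 and 1222 in untreated sh-scr cells. In sh-PRDM16 cells it had 1595 and 1831 with the drug, against 813 and 1234 without it. The groups did not overlap in either line. Trim25 rose by 0.62 in sh-scr cells (SE 0.19, adjusted p = 0.0318), also on both other scales, and by 0.76 in sh-PRDM16 cells (SE 0.19, adjusted p = 0.0292), but there not on median-centred (adjusted p = 0.0668) or quantile-normalized arrays (adjusted p = 0.0885). The call passed under 10 of 17 alternatives in sh-scr cells, and under none that left out 1 of the 4 sh-scr arrays (adjusted p = 0.084 to 0.104), and under 8 of 17 in sh-PRDM16 cells. Its 3 probe sets had changes of 0.62, 0.59 and 0.38 in sh-scr cells and 0.76, 0.73 and 0.32 in sh-PRDM16 cells. Only the first of them passed on its own. The others had adjusted p = 0.0773 and 0.192 in sh-scr cells and 0.0809 and 0.412 in sh-PRDM16 cells.

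Tapbp had 2647 and 2383 in treated sh-scr cells, against 3693 and 3899 in untreated sh-scr cells. The groups were separate, and Tapbp fell by 0.59 (SE 0.14, adjusted p = 0.0123) on all 3 scales and under 15 of 17 alternatives. A dimmer probe set of Tapbp had -0.35 and did not pass on its own (adjusted p = 0.113). In sh-PRDM16 cells Tapbp had 2562 and 2984 with the drug, against 3001 and 2783 without it, which overlapped (change -0.06, adjusted p = 0.817).

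Ifit2, a relative of Ifit1, was lower in both lines on the deposited scale. It had 105 and 108 in treated sh-scr cells, against 189 and 173 in untreated sh-scr cells, and 113 and 128 in treated sh-PRDM16 cells, against 175 and 253 in untreated sh-PRDM16 cells. The groups did not overlap. Ifit2 fell by 0.69 in sh-scr cells (adjusted p = 0.0156, and 0.245 on median-centred arrays). It fell by 0.73 in sh-PRDM16 cells (adjusted p = 0.0214, with 0.0421 on median-centred and 0.0532 on quantile-normalized arrays). The call passed under 12 of 17 alternatives in sh-scr cells and under 11 of 17 in sh-PRDM16 cells. In sh-PRDM16 cells it was lost on the deposited scale without untreated array 2, and the change ran from -1.12 to -0.43 over the alternatives.

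The other lower calls in sh-scr cells were Gbp2 (-0.69), Tap2 (-0.65), Ifi35 (-0.62), Ifi27l2a (-0.61), Psmb9 (-0.50), Dhx58 (-0.45) and Samhd1 (-0.35). Of these 7, Ifi27l2a also passed on quantile-normalized arrays (adjusted p = 0.0156), and the others passed on the deposited scale alone. Samhd1 passed under 4 of 17 alternatives, Dhx58 under 8 and the other 5 under 10 to 13. Their changes on median-centred arrays ran from -0.38 for Gbp2 to -0.04 for Samhd1.

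Bst2 and Psmb10, both lower in untreated sh-PRDM16 cells, were higher with rosiglitazone in that line. Bst2 had 2982 and 3364 with the drug, against 2103 and 2163 without it, and Psmb10 had 730.2 and 831, against 522 and 533. Neither pair overlapped. Bst2 rose by 0.57 (adjusted p = 0.0196) and Psmb10 by 0.55 (adjusted p = 0.0201), each on all 3 scales and under 14 of 17 alternatives. Neither call held on the deposited scale with array 1 or with array 2 of untreated sh-PRDM16 left out. Over the alternatives Bst2 had 0.41 to 0.65 and Psmb10 had 0.40 to 0.64. In sh-scr cells their changes were -0.10 (adjusted p = 0.559) and -0.15 (adjusted p = 0.342). These comparisons share the untreated sh-PRDM16 arrays with the comparison of the lines without the drug.

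**Figure D5:**
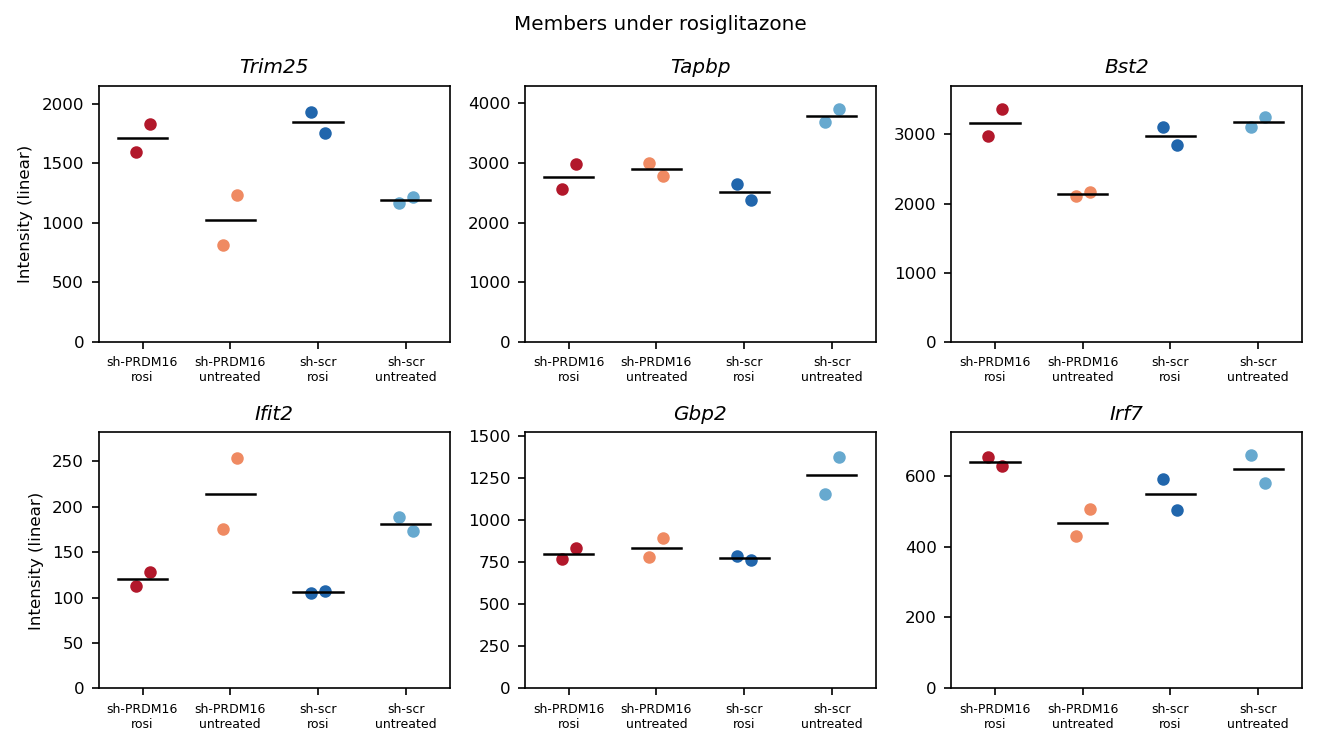
Linear array intensity (vertical axis, from 0) of Trim25, Tapbp, Bst2, Ifit2, Gbp2 and Irf7 in the 4 groups, with 1 point per array and a bar at the mean of 2 arrays. Trim25 is higher with rosiglitazone in both lines, Tapbp and Gbp2 are highest in untreated sh-scr cells, and Bst2 is lowest in untreated sh-PRDM16 cells.

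The interaction asks whether the response to rosiglitazone differed between the lines. It passed for 0 of the 40 genes in either direction, against 0.603% of all genes higher and 0.0646% lower, and 11 of the 40 had an unadjusted p under 0.05 (25.4% of all genes). The median interaction over all genes was 0.33 on the deposited scale. The values farthest from 0 were -1.41 for Ifit1 (adjusted p = 0.339), -1.05 for Rsad2 (adjusted p = 0.377), 0.70 for Gbp3 (adjusted p = 0.204) and 0.70 for Psmb10, which were as low as 0.11 and 0.24 under the alternatives, and those of Ifit1 and Rsad2 include the split between the untreated sh-PRDM16 arrays. Without array 1 of that group, Ifit1 had -2.88 (adjusted p = 0.0394), 1 gene lower against 0.0538% of all genes.

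Upstream of these genes, 25 ligands, receptors and signalling genes were listed, of which 19 were tested. With rosiglitazone 8 of the 19 were lower in sh-scr cells on the deposited scale (32.2% of all genes) and 5 on median-centred arrays (10.7% of all genes). In sh-PRDM16 cells 0 were lower on the deposited scale (3.31% of all genes) and 3 on median-centred arrays (11.2% of all genes). Ifnar1, a chain of the type I interferon receptor, had 315 and 338 in treated sh-scr cells, against 535 and 527 in untreated sh-scr cells, and fell by 0.68 (adjusted p = 0.00674). Jak2, a kinase of the interferon gamma receptor, fell by 0.70 (adjusted p = 0.00855) and Socs3, a feedback inhibitor of JAK kinases, by 0.91 (adjusted p = 0.0135), and all 3 passed on each scale. Without the drug 2 of 19 were lower in sh-PRDM16 than in sh-scr cells (15.5% of all genes), Ifngr1 (-0.59), the chain that binds interferon gamma, and Mavs (-0.59), the mitochondrial adaptor of the RNA sensors, but on median-centred arrays 0 were lower (12.2% of all genes) and 2 were higher (9.31% of all genes). With the drug 2 were higher (10.6% of all genes), of which 1 also passed on median-centred arrays, Socs3, with 1021 and 1256 in sh-PRDM16 cells, against 459 and 479.5 in sh-scr cells (1.24, adjusted p = 0.00689).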

How the data were processed

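The authors deposited a table of linear array intensity values for 22690 probe sets on 8 arrays, and how they were summarized and scaled is not given in the sources used here. Per the labels' protocols, Trizol RNA was copied into biotin-labelled cRNA for Affymetrix mouse arrays. Samples were grouped by title. Of the probe sets, 20380 had 1 gene in the platform annotation, 691 several, 1555 were not listed and 64 were controls. A gene was read from its brightest probe set, the lowest 25% of 12393 genes were left out, and log2(intensity + 16), which understates changes of dim genes, was fitted with limma 3.58.1 (lmFit and eBayes, R 4.3.3) to the 8 arrays together, 1 mean for each group (4 residual and 5.31 prior degrees of freedom). Two-sided p-values were adjusted by Benjamini-Hochberg over 9294 genes, with a threshold of 0.05. The script was tested on simulated data.

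Named in each comparison were the members past the threshold, or the 4 largest changes, with a few members fixed throughout. Members highest between 2 arrays of a group were named after their values were seen. The members and lists were chosen with earlier results of these data known. Same-numbered arrays of different groups deviated with r between -0.02 and 0.05 across genes, so the numbers were not taken as pairs. Alternatives were 2 other scalings, no filter, pseudocounts of 1 and 64, the mean of a gene's probe sets, a replicate block, each array left out and, chosen after seeing the data, median-centred arrays without either untreated sh-PRDM16 array. The number of arrays limits the precision.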

Additional observations from a re-analysis of the deposited data

How the results depend on the processing

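With 2 arrays per group, calls near the threshold moved with the setting. Of 65 named values under 17 alternatives, 975 of 1105 outcomes kept a call in the same direction or stayed uncalled. In 108 outcomes the call was lost with the direction kept, and in 21 a call was gained. Only values called in the fit of all arrays can lose a call, so among those the share lost was larger than 108 of 1105. The value that reversed was Ifit1 without rosiglitazone, 0.49 in the fit of all arrays and -0.87 (adjusted p = 0.0483) on median-centred arrays without untreated sh-PRDM16 array 2. A pseudocount of 64 gave 2 members higher (6.1% of all genes) for rosiglitazone in sh-scr cells, 5 higher (13.4%) and 5 lower (6.63%) in sh-PRDM16 cells, 14 lower (21.4%) in sh-PRDM16 than in sh-scr cells without the drug and 8 lower (6.93%) with it, and 6 higher (8.31%) and 2 lower (0.301%) for the interaction, all percentages being shares of all genes. For rosiglitazone in sh-scr cells, no filter, a pseudocount of 1 and the mean of all probe sets each gave 0 higher (3.42%, 4.67% and 4.72% of all genes). The lower count in sh-scr cells was 1 on median-centred (10.7% of all genes) and 2 on quantile-normalized arrays (14.9% of all genes). In sh-PRDM16 cells the lower count was 0 with quantile normalization (13.5% of all genes) and 0 with no filter (1.52% of all genes). With the replicate block 2 members were higher for rosiglitazone in sh-scr cells (4.74% of all genes), and the numbers do not pair the arrays.

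Leaving out 1 array, also on median-centred arrays, gave 0 to 4 higher (2.73% to 13.9% of all genes) and 0 to 11 lower (8.76% to 36.6%) for rosiglitazone in sh-scr cells. It gave 0 to 7 higher (4.78% to 10.4%) and 0 to 12 lower (1.22% to 5.39%) in sh-PRDM16 cells. For the lines it gave 0 to 10 higher (0.925% to 3.81%) and 5 to 15 lower (6.09% to 17.9%) without the drug, and 0 to 0 higher (2.56% to 14%) and 2 to 12 lower (2.42% to 12.6%) with it. For the interaction it gave 0 to 0 higher (0% to 0.721%) and 0 to 1 lower (0% to 0.0753%). Without either untreated sh-PRDM16 array on median-centred arrays, 3 were lower for rosiglitazone in sh-scr cells. Without untreated sh-PRDM16 array 1, 9 were lower for rosiglitazone in that line, and without array 2, 9 were lower for the lines without the drug. Without untreated sh-scr array 1, 3 were higher for rosiglitazone in sh-PRDM16 cells. Without untreated sh-scr array 2 the lower count for rosiglitazone in sh-scr cells was 0, and without treated sh-scr array 2 it was 1. Dim genes have few units of intensity above the pseudocount, so small changes in them would not be seen. The causes were not tested.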
